A study of Mus musculus with 26 samples.

Results

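The mRNA of 9 transcription factors that maintain thymocyte identity was followed through CD8 T cell positive selection: Tcf7 and Lef1, Satb1, Bcl11b, Myb, Ets1, and the Ikaros family genes Ikzf1, Ikzf2 and Ikzf3. The members were picked by gene symbol, and these are 9 of 46517 symbols measured by bulk RNA sequencing of sorted mouse thymocytes. All 9 passed the filter on low values (at least 10 normalized counts in at least 2 libraries), which left 16372 genes for testing.

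Thymocytes came from 3 lines of mice, each with transgenes for an MHC class I restricted TCR, so that a line stands for 1 transgenic TCR. TG6 has low self-reactivity, and its genotype is labelled TG6tg H2b/d on a C57/BL6 x B6.C-H2d/bByJ background, with no Rag deletion named. TCR chains other than those of the transgenes are thus not excluded in TG6. F5 has intermediate self-reactivity (F5tg Rag1KO, C57/BL6), and OT-1 has high self-reactivity (OT-1tg Rag2KO, C57/BL6). TG6 therefore differs from both other lines in TCR, MHC haplotype and Rag genotype together, and F5 and OT-1 differ in TCR and in the Rag gene deleted, and these cannot be told apart here. The labels give no age. From 3 mice of each line, cells were sorted by surface protein into 3 stages. The early stage of positive selection was gated as CD4+CD8+CXCR4+CCR7-. The late stage had lost CXCR4 and gained CCR7 (CD4+CD8+CXCR4-CCR7+), and the mature CD8SP stage had also lost CD4 (CD4-CD8+CXCR4-CCR7+). There were 3 libraries in each group except TG6 late, which has 2, for 26 libraries in all.

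TCF-1, the product of Tcf7, and LEF-1 are HMG-box proteins that bind the same DNA motif and work with β-catenin or with Groucho/TLE corepressors, and TCF-1 is needed for T lineage commitment and for the survival of double-positive thymocytes. Bcl11b is the zinc finger factor that completes T lineage commitment, Satb1 is a chromatin organizer of the double-positive stage, c-Myb acts in thymocyte survival and antigen receptor gene rearrangement, and Ets1 is the founding member of the ETS family. Ikaros (Ikzf1), Helios (Ikzf2) and Aiolos (Ikzf3) are related zinc finger proteins that associate with the NuRD chromatin remodeling complex, and Helios is known as a gene induced by strong TCR signals from self-ligands.

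Motifs of the TCF/LEF, ETS, Ikaros and MYB factors were searched in the RefSeq promoter windows of the members (GRCm38.p6, 250 bases before to 50 bases after a start site), on both strands: CTTTGA for TCF/LEF, CCGGAA for ETS, TGGGAA for Ikaros and AACTG for MYB. Windows were on hand for Tcf7, Lef1, Satb1, Bcl11b, Myb and Ikzf1, with 15 start sites in all. Among 32851 mouse promoter windows of the same length, 16% held the TCF/LEF letters, 14.9% the ETS letters, 25.6% the Ikaros letters and 44.8% the MYB letters, so that a match is a common event and only describes the letters. The 4 factors that fell between the early and mature stages in all 3 lines, Tcf7, Satb1, Bcl11b and Myb, are shown with Lef1, the partner of Tcf7 that did not fall. For each, the start site whose window held most matches was taken. All 5 sequences are written 5′ to 3′ on the strand of the gene, and capitals mark the letters of a motif on either strand.
Tcf7 (chr11:52282546-52282845, minus strand, in the 5′ part of the gene): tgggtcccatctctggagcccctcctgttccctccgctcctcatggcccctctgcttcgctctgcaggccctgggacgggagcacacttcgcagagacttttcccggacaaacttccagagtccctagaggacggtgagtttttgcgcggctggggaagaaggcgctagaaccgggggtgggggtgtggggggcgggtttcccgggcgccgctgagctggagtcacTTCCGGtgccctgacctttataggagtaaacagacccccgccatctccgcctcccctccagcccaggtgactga
Satb1 (chr17:51826539-51826838, minus strand, inside the gene): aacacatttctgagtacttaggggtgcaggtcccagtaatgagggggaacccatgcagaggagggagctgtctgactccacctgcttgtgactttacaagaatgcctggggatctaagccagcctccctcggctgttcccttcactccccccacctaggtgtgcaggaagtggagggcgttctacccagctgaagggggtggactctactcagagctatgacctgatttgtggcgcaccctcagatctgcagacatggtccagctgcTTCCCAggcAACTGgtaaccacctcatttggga
Bcl11b (chr12:108003365-108003664, minus strand, across the 5′ end of the gene): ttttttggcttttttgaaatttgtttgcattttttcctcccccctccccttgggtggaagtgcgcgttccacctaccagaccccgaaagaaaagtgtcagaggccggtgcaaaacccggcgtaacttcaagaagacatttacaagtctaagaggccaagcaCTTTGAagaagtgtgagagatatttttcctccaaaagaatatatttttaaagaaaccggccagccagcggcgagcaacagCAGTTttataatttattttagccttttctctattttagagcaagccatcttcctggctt
Myb (chr10:21160935-21161234, minus strand, across the 5′ end of the gene): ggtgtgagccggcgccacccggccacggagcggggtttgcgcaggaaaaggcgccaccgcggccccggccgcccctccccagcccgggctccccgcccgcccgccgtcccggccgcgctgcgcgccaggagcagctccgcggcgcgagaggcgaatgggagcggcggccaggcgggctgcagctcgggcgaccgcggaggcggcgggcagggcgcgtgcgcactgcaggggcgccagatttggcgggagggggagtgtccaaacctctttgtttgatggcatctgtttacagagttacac
Lef1 (chr3:131156044-131156343, plus strand, inside the gene): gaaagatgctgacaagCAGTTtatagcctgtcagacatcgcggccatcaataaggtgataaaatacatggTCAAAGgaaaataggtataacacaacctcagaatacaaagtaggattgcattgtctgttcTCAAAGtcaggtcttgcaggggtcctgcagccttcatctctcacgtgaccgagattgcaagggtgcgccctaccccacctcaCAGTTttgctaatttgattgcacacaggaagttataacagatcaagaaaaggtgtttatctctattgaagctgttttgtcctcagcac
The Lef1 window held 2 TCF/LEF and 2 MYB matches, and the Bcl11b window held 1 of each. The Satb1 window held 1 Ikaros and 1 MYB match, the Tcf7 window held 1 ETS match, and the Myb window held none of the 4 motifs. The counts are totals per gene and do not tell which start site was used.

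The deposited values were counts scaled between libraries, and their totals ranged from 16134786 to 18944173 per library. Replicates of a group correlated with r between 0.95 and 0.978 over the genes tested (log2 scale), and libraries of different groups with r of up to 0.961. Message for the sorted proteins followed the gates: Cd4 had a mean of 153 to 259 normalized counts in the 3 mature groups and of at least 2507 in every other group, and Ccr7 stood at a mean of 779 or less in the early groups and at 4641 or more in the later ones. Cxcr4 message was lowest at late positive selection and higher again in the mature groups of each line, although both populations were sorted as CXCR4-. Message was counted for both labelled knockout genes. Rag1 had a mean of 54642 in TG6 early and 14083 in F5 early libraries (Rag1KO), and Rag2 had 2308 in TG6 early and 216 in OT-1 early libraries (Rag2KO). Which part of each gene is deleted is not given in the sources used here, so that these values do not check the genotype. Of 6 markers of B cells, 4 passed the filter, and their sum was 121 to 336 normalized counts per library. Of 5 markers of thymic epithelium, 2 passed, with a sum of 24.5 to 76.0. TG6 mature replicate 3 stood apart from the other TG6 mature libraries, with the highest sum of the group for the cycling-cell list (19908 to 69748 over the group) and for the double-negative list (367 to 2965). Among the tests that use it, no call of a factor was lost without it and 3 were gained. Values without it are given for the early to mature changes of Tcf7, Lef1 and Myb in TG6 and for some, not all, of the other results. In bulk samples, fewer cells of a type and less RNA per cell cannot be told apart.

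In the GRCm38 annotation (GENCODE vM21), Tcf7 lies on the minus strand at chr11:52252371-52283014, Lef1 on the plus strand at chr3:131110471-131224356, and Satb1, Bcl11b and Myb on the minus strand at chr17:51736187-51833290, chr12:107910403-108003602 and chr10:21124935-21160984. Ets1 lies on the plus strand at chr9:32636221-32757820. Ikzf1 lies on the plus strand at chr11:11685003-11772926, and Ikzf2 and Ikzf3 on the minus strand at chr1:69531214-69687245 and chr11:98464902-98546031.

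Per kilobase of annotated exon, Tcf7 was the most abundant of the 9 by far, with a mean over all libraries of 22474 normalized counts per kb. Ets1 (3757), Ikzf1 (3320), Satb1 (2514), Bcl11b (1848) and Myb (1100) followed, and Lef1 (879), Ikzf3 (541) and Ikzf2 (315) were lowest. With the longest transcript as the length, Tcf7 stayed first and Ikzf3 and Ikzf2 last, and Satb1 moved to the second place. Myb varied most, with a highest library 10.9 times the lowest, followed by Satb1 (4.26 times) and Ikzf2 (4.23 times). Ikzf1 was the steadiest at 1.87 times, with Ets1 at 2.02 times. In mean normalized count without correction for length, each of the 9 lay above at least 93.5% of the genes tested, and the part of that abundance in how often they were called was not tested.

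**Figure D1:**
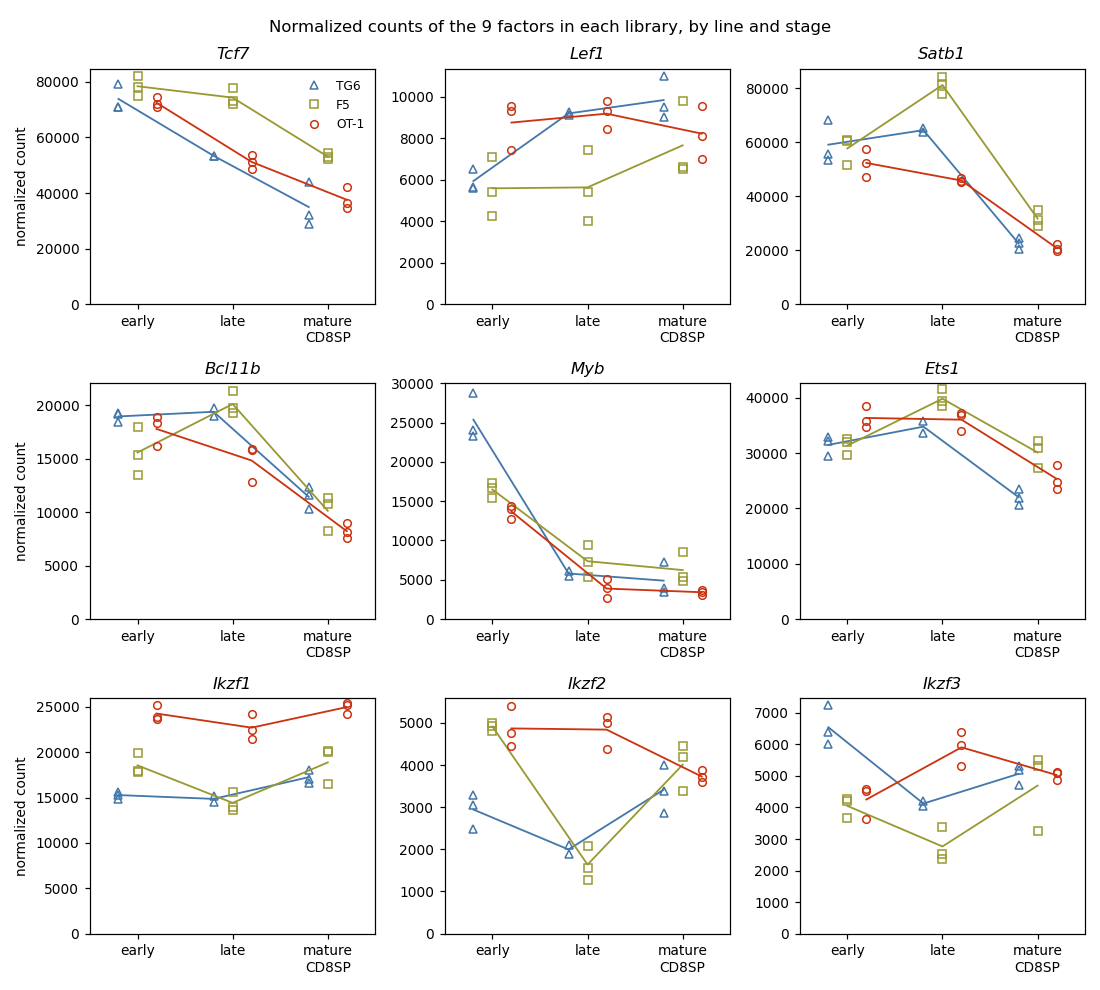
Normalized counts (linear axes from 0) of the 9 transcription factors in every library, by stage, for TG6 (blue triangles), F5 (olive squares) and OT-1 (red circles); open points are libraries and lines join group means. Tcf7, Satb1, Bcl11b and Myb ended lower than they began in all 3 lines, and OT-1 libraries lay above all others for Ikzf1 at each stage.

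From early positive selection to mature CD8SP, the factors that changed nearly all fell. In TG6, 6 of the 9 were called at an adjusted p under 0.05 (limma, adjusted over all genes tested), 1 higher and 5 lower, beside 34.6% of all genes. In F5, 4 were called, all lower, beside 19.6%. In OT-1, 5 were called, all lower, beside 23.2%. The median log2 fold change of the 9 was −0.52 in TG6, −0.30 in F5 and −0.52 in OT-1, against −0.03 to −0.01 over all genes tested. With each mouse as a block, 8, 5 and 6 of the 9 were called, beside 42.6%, 27.9% and 31.3% of all genes.

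The 2 steps were also tested apart. From early to late positive selection, 5 of 9 were called in TG6 (1 higher, 4 lower, beside 25.4% of all genes), 7 in F5 (3 higher, 4 lower, beside 26.7%) and 3 in OT-1 (1 higher, 2 lower, beside 26.7%, a share close to that of all genes). From late positive selection to mature CD8SP, 5 were called in TG6 (1 higher, 4 lower, beside 22.3%), 7 in F5 (3 higher, 4 lower, beside 20.5%) and 4 in OT-1 (all lower, beside 24.4%). With each mouse as a block, 6, 7 and 5 factors were called over the first step, beside 27.7%, 35.6% and 35.5% of all genes, and 7, 8 and 5 over the second, beside 24.5%, 29.3% and 35%. The median of the 9 over the first step was −0.04 in TG6, −0.08 in F5 and −0.10 in OT-1, against 0.00 to 0.04 over all genes tested. Over the second step it was −0.32, −0.25 and −0.37, against −0.02 to −0.00. The steps of a line share its libraries.

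Between lines, OT-1 and TG6, the ends of the self-reactivity range, differed in 5 of the 9 factors at early positive selection (3 higher and 2 lower in OT-1, beside 27.8% of all genes), in 5 at late positive selection (3 higher, 2 lower, beside 15.5%) and in 2 in mature CD8SP (1 higher, 1 lower, beside 9.74%). OT-1 and F5 differed in 2 at the early stage (both higher in OT-1, beside 12.7%), in 8 at the late stage (4 higher, 4 lower, beside 24%) and in 5 in mature CD8SP (1 higher, 4 lower, beside 23.3%). At late positive selection the OT-1 and F5 libraries did not overlap for any of the 9. The share of all genes apart in this way was not computed, so that this count only describes the 9. F5 and TG6 differed in 3 at the early stage (2 higher and 1 lower in F5, beside 6.46%), in 1 at the late stage (higher, beside 4.97%) and in 3 in mature CD8SP (all higher, beside 6.64%). Without TG6 mature replicate 3, whose spread enters the shared estimate, 3 factors in place of 1 were called in F5 minus TG6 late. In each of the 18 comparisons of 2 groups, the share of the 9 factors called was above that of all genes, although for F5 minus TG6 late it rests on the 1 call of Tcf7, which was lost with no filter (adjusted p = 0.051) and on the compared groups alone (0.053), leaving 0 of 9. The count of 18 is no test of the set. The factors were chosen with earlier results of these data known, and the comparisons share libraries. Each factor also lay above at least 93.5% of the genes tested in mean count.

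Medians of the 9 between lines at the early, late and mature stage were −0.03, −0.00 and −0.01 for OT-1 minus TG6, 0.07, −0.14 and −0.25 for OT-1 minus F5 and −0.03, 0.05 and 0.23 for F5 minus TG6, against −0.01 to 0.02 over all genes tested. The split of calls depended on scaling. Over the 3 stages OT-1 against TG6 gave 7 higher and 5 lower calls, but 5 and 7 after scaling to the total and 5 and 8 after quantile normalization, and OT-1 against F5 gave 7 and 8, but 5 and 11 after quantile normalization. F5 against TG6 gave 6 and 1, but 6 and 3 after scaling to the total and 7 and 3 after quantile normalization. Scaling to the total moved the median of all genes by −0.11 and −0.13 for OT-1 minus TG6 at the early and late stage, by −0.14 for OT-1 minus F5 in mature CD8SP and by −0.11 for TG6 from late positive selection to mature CD8SP, where quantile normalization moved it by −0.10. The other moves were below 0.1 in size. Line comparisons at a stage share libraries with each other and with the stage changes.

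**Figure D2:**
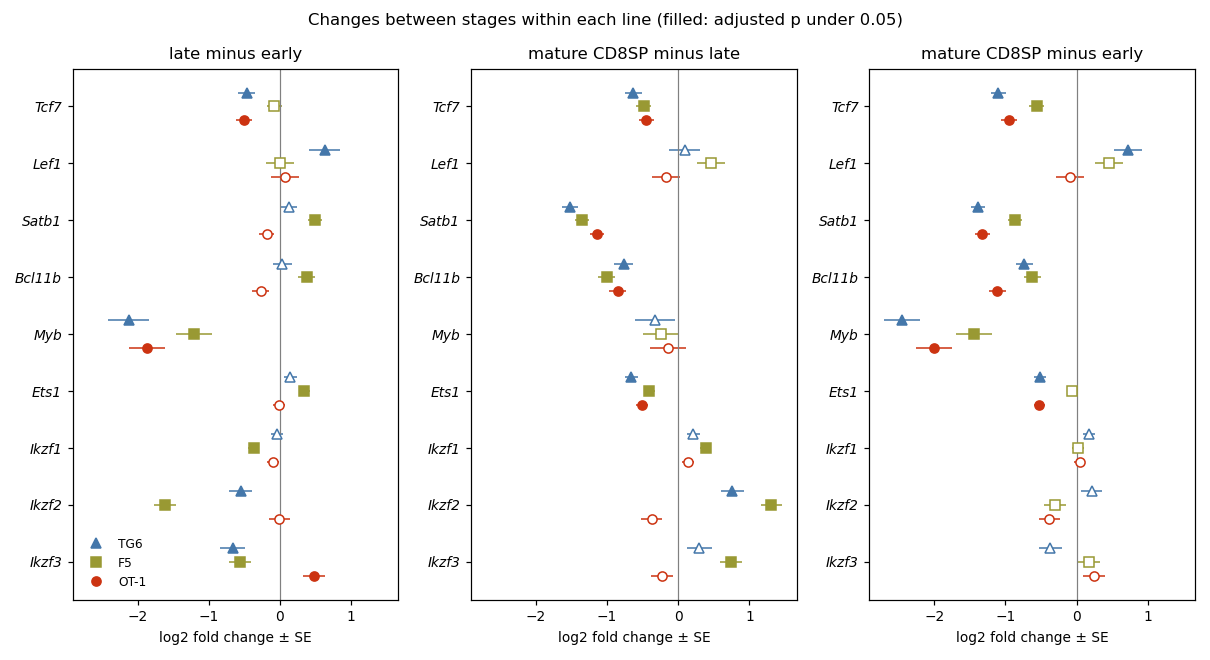
Log2 fold change (± SE) of each factor between stages, in panels for late minus early, mature minus late and mature minus early, for TG6, F5 and OT-1; filled symbols have an adjusted p under 0.05 (limma over all genes). Satb1 and Bcl11b fell from the late to the mature stage in all 3 lines, and Ikzf2 fell at the first step and rose at the second in TG6 and F5.

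Tcf7 gave in TG6 values of 71024, 71034 and 79332 in the early, 53326 and 53423 in the late and 32171, 28715 and 44057 in the mature libraries (normalized counts). In F5 the Tcf7 libraries gave 78262, 74781 and 82039 in the early, 77606, 73094 and 72111 in the late and 54338, 52113 and 52804 in the mature libraries. In OT-1 they gave 71807, 70837 and 74658 in the early, 51232, 48609 and 53709 in the late and 34467, 36314 and 42009.8 in the mature libraries. In every line the mature libraries lay below all early ones, and in TG6 and OT-1 the late libraries lay between without overlap. The fall from early positive selection to mature CD8SP was 2.14-fold in TG6 (log2 fold change −1.10, SE 0.11, adjusted p = 3.8e-08), 1.93-fold in OT-1 (log2 fold change −0.95, SE 0.11, adjusted p = 9.7e-07) and 1.48-fold in F5 (log2 fold change −0.56, SE 0.11, adjusted p = 6e-04). Tcf7 fell at the first step in TG6 (log2 fold change −0.47, SE 0.12, adjusted p = 0.0061) and OT-1 (log2 fold change −0.50, SE 0.11, adjusted p = 0.0015), whereas in F5 the first step gave −0.08, adjusted p = 0.66. At the second step it fell in TG6 (log2 fold change −0.63, SE 0.12, adjusted p = 0.00061), F5 (log2 fold change −0.48, SE 0.11, adjusted p = 0.0025) and OT-1 (log2 fold change −0.45, SE 0.11, adjusted p = 0.0045). Without TG6 mature replicate 3, at 44057 the highest of its group, the fall in TG6 was −1.28, adjusted p = 6.8e-11. The first step in TG6 was not called after quantile normalization (adjusted p = 0.057), nor was the second step in F5 (adjusted p = 0.23) or, fitted on the compared groups alone, in TG6 (adjusted p = 0.13).

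Tcf7 was held higher in F5 than in both other lines at the 2 later stages. At late positive selection every F5 library was above every library of TG6 (log2 fold change 0.48, SE 0.12, adjusted p = 0.021) and of OT-1 (OT-1 minus F5, log2 fold change −0.54, SE 0.11, adjusted p = 0.00087). In mature CD8SP the same held for TG6 (log2 fold change 0.63, SE 0.11, adjusted p = 0.00046) and OT-1 (OT-1 minus F5, log2 fold change −0.50, SE 0.11, adjusted p = 0.0021). OT-1 and TG6 were not separated by the test at any stage, with 95% intervals of OT-1 minus TG6 of −0.25 to 0.20, −0.31 to 0.19 and −0.10 to 0.35 at the early, late and mature stage. Without TG6 mature replicate 3, the mature difference was called (0.30, adjusted p = 0.0084). The F5 minus TG6 call at late positive selection was lost without F5 late replicate 1 (adjusted p = 0.062) and without either TG6 late library (adjusted p = 0.16), and with no filter (0.051), quantile normalization (0.29) or the compared groups alone (0.053). The mature one was lost on the compared groups alone (adjusted p = 0.17). Of 7 double-positive markers, which include Rag1 and Rag2, 0 were called higher and 4 lower in OT-1 than in F5 at late positive selection. In mature CD8SP 0 were higher and 3 lower, and between F5 and TG6 0 were called at either stage. The part of these markers in the differences of Tcf7, Satb1, Bcl11b and Myb between OT-1 and F5 was not tested.

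Lef1, the second HMG-box factor, gave in TG6 values of 5627, 5678 and 6526 in the early, 9278 and 9117 in the late and 11009, 9003 and 9513 in the mature libraries (normalized counts). F5 libraries of Lef1 read 7098, 5397 and 4279.5 in the early, 7457, 5435 and 4021 in the late and 9808, 6635 and 6542 in the mature libraries. OT-1 libraries of Lef1 read 9538, 9307 and 7428 in the early, 9783, 9331 and 8447 in the late and 7001, 9550.2 and 8124 in the mature libraries. In TG6 all early libraries lay below all later ones, whereas in F5 and OT-1 the stages overlapped. Lef1 rose in TG6 from early to late positive selection (log2 fold change 0.63, SE 0.22, adjusted p = 0.038) and was higher in mature CD8SP than at the early stage (log2 fold change 0.73, SE 0.20, adjusted p = 0.0058; 0.75, adjusted p = 0.012 without replicate 3). In F5 the change from early to mature was 0.46, adjusted p = 0.11, and 0.46 with adjusted p = 0.0043 with each mouse as a block, under which the step from late to mature was also called (0.46, adjusted p = 0.004). The F5 change from early to mature was also called without F5 early replicate 1 (0.65, adjusted p = 0.034), and the step from late to mature without F5 late replicate 1 (0.69, adjusted p = 0.016) and after quantile normalization (0.52, adjusted p = 0.045). In OT-1 the change from early to mature was −0.09, adjusted p = 0.8. The TG6 rise to late positive selection was lost without either TG6 late library or without TG6 early replicate 1 or 2 (adjusted p from 0.089 to 0.16), and with no filter (0.063) or no trend in the prior variance (0.058). Where exons are annotated, 13.8% of the Lef1 exon bases overlap the antisense gene Gm43352, and the strandedness of counting is not given in the sources used here.

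Between lines, Lef1 at the early stage was highest in OT-1, where every OT-1 library was above all of TG6 (log2 fold change 0.55, SE 0.20, adjusted p = 0.04) and of F5 (log2 fold change 0.67, SE 0.20, adjusted p = 0.027). At late positive selection OT-1 was above F5 (log2 fold change 0.75, SE 0.20, adjusted p = 0.0078) and OT-1 minus TG6 was −0.00, adjusted p = 1 (95% interval −0.46 to 0.45). F5 minus TG6 at that stage was −0.75, adjusted p = 0.051, without overlap of the groups and just outside the threshold, and it passed with a filter of a mean of at least 50 (adjusted p = 0.048), after scaling to the total (0.018) or quantile normalization (0.012) and without F5 late replicate 1 (0.008). It also passed with the replicate number as a block (0.046), although mice of different lines share only that number. In mature CD8SP no pair of lines was called. These Lef1 calls rest on few libraries. The early OT-1 minus TG6 call was lost without OT-1 early replicate 1 or 2 or TG6 early replicate 1 or 2 (adjusted p from 0.11 to 0.13) and after scaling to the total (0.07), quantile normalization (0.079), no filter (0.065) or no trend in the prior variance (0.06). The early OT-1 minus F5 call was lost without F5 early replicate 2 or 3 or OT-1 early replicate 1 or 2 (0.082 to 0.17), and the late one without F5 late replicate 3 (0.073).

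Satb1 read in TG6 at 55506, 53511 and 68376 in the early, 65376 and 63642 in the late and 22691, 20574 and 24568 in the mature libraries (normalized counts). In F5, Satb1 read 60855, 51775 and 60577 in the early, 84081, 78048 and 81519 in the late and 34909.7, 29113 and 31303 in the mature libraries. In OT-1, Satb1 read 52283, 57712 and 47100.2 in the early, 45404, 46628 and 45522 in the late and 19715, 22277 and 20649 in the mature libraries. The mature libraries of each line lay far below all its other libraries. From late positive selection to mature CD8SP, Satb1 fell 2.86-fold in TG6 (log2 fold change −1.52, SE 0.11, adjusted p = 1.5e-08), 2.56-fold in F5 (log2 fold change −1.36, SE 0.10, adjusted p = 1e-08) and 2.20-fold in OT-1 (log2 fold change −1.14, SE 0.10, adjusted p = 6.6e-07). Before that it rose in F5, from early to late positive selection (log2 fold change 0.50, SE 0.10, adjusted p = 7e-04). The same step gave 0.13, adjusted p = 0.44 in TG6 (0.22, adjusted p = 0.035 with each mouse as a block) and −0.19, adjusted p = 0.18 in OT-1 (adjusted p = 0.028 with the block), and after quantile normalization it was called higher in TG6 (0.35, adjusted p = 0.00023) and lower in OT-1 (−0.19, adjusted p = 0.02). Over both steps it fell in TG6 (log2 fold change −1.38, SE 0.10, adjusted p = 3e-10), F5 (log2 fold change −0.86, SE 0.10, adjusted p = 1.3e-06) and OT-1 (log2 fold change −1.32, SE 0.10, adjusted p = 3e-09).

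No pair of lines was called for Satb1 at the early stage, where the 3 differences lay between −0.17 and −0.03 with adjusted p of at least 0.21. These early differences depended on scaling. OT-1 minus TG6 was called after scaling to the total (−0.28, adjusted p = 0.019) and quantile normalization (−0.38, adjusted p = 4.2e-05). OT-1 minus F5 was called after quantile normalization (−0.57, adjusted p = 5.3e-07), under which F5 minus TG6 turned to 0.19 (adjusted p = 0.046). At late positive selection F5 was highest, TG6 between and OT-1 lowest, with no overlap between lines. OT-1 lay below TG6 (log2 fold change −0.49, SE 0.11, adjusted p = 0.0039) and below F5 (log2 fold change −0.82, SE 0.10, adjusted p = 2.6e-06), while F5 minus TG6 was 0.33, adjusted p = 0.1. In mature CD8SP, F5 stayed above OT-1 (OT-1 minus F5, log2 fold change −0.60, SE 0.10, adjusted p = 0.00018) and TG6 (log2 fold change 0.49, SE 0.10, adjusted p = 0.0025). The late OT-1 minus TG6 call was lost without TG6 late replicate 1 (adjusted p = 0.05), and the mature F5 minus TG6 call on the compared groups alone (0.15). Mature OT-1 minus TG6 was −0.11, adjusted p = 0.51, −0.05, adjusted p = 0.76 without TG6 mature replicate 3, and −0.23, adjusted p = 0.016 after quantile normalization.

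Bcl11b, the commitment factor, read in TG6 at 19292, 18408 and 19125 in the early, 19026 and 19730.5 in the late and 12304, 11639.9 and 10322 in the mature libraries (normalized counts). Its F5 libraries read 17912, 13422 and 15374 in the early, 21361, 19689.5 and 19257 in the late and 11353, 8262 and 10747 in the mature libraries. Its OT-1 libraries read 18878, 18288 and 16154 in the early, 15772, 12834 and 15860.1 in the late and 8111, 7536 and 9002 in the mature libraries. As for Satb1, the mature libraries of each line lay below all earlier ones. Bcl11b fell from late positive selection to mature CD8SP in TG6 (log2 fold change −0.77, SE 0.13, adjusted p = 0.00024), F5 (log2 fold change −1.002, SE 0.12, adjusted p = 3.9e-06) and OT-1 (log2 fold change −0.85, SE 0.12, adjusted p = 3e-05). Over both steps it fell 1.66-fold in TG6 (log2 fold change −0.73, SE 0.12, adjusted p = 3.7e-05), 1.54-fold in F5 (log2 fold change −0.62, SE 0.12, adjusted p = 0.00052) and 2.16-fold in OT-1 (log2 fold change −1.11, SE 0.12, adjusted p = 4e-07). At the first step it rose in F5 (log2 fold change 0.38, SE 0.12, adjusted p = 0.021), a call lost without F5 late replicate 1 or F5 early replicate 2 or 3 (adjusted p from 0.056 to 0.14). In OT-1 that step was −0.27, adjusted p = 0.11, with groups that did not overlap, and it was called with each mouse as a block (adjusted p = 0.037) and after quantile normalization (−0.36, adjusted p = 0.02).

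Bcl11b was lower in OT-1 than in TG6 at late positive selection (log2 fold change −0.39, SE 0.13, adjusted p = 0.048) and in mature CD8SP (log2 fold change −0.48, SE 0.12, adjusted p = 0.013), with every OT-1 library below every TG6 library at both stages. OT-1 was also below F5 at late positive selection (log2 fold change −0.44, SE 0.12, adjusted p = 0.0086), and in mature CD8SP the difference was −0.29, adjusted p = 0.081. The latter was called after scaling to the total (−0.43, adjusted p = 0.01) or quantile normalization (−0.44, adjusted p = 0.0071) and without F5 mature replicate 2 (−0.43, adjusted p = 0.011). It was also called with the replicate number, which mice of different lines share in name only, as a block (adjusted p = 0.048). Early OT-1 minus TG6 was −0.09, adjusted p = 0.59, and −0.30, adjusted p = 0.049 after quantile normalization. F5 and TG6 were not separated by the test at any stage. The late OT-1 minus TG6 call was lost without OT-1 late replicate 1 or 2 or either TG6 late library (adjusted p from 0.06 to 0.24), and with a pseudocount of 0.1 (0.05), no filter (0.084) or no trend in the prior variance (0.076). The mature one was lost without OT-1 mature replicate 2 or TG6 mature replicate 1 or 2 (0.058 to 0.081) and on the compared groups alone (0.11), and the late OT-1 minus F5 call without OT-1 late replicate 2 (0.064).

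Myb had the widest range of the 9. Its TG6 libraries read 23311, 24079.9 and 28712 in the early, 6154 and 5439.8 in the late and 3920.2, 3454 and 7287 in the mature libraries (normalized counts). Its F5 libraries read 17333, 16699 and 15434 in the early, 9469, 7261 and 5345 in the late and 8502, 5383 and 4816 in the mature libraries. Its OT-1 libraries read 13954, 14350.2 and 12738 in the early, 3929, 5082 and 2627 in the late and 3479, 3664 and 3095 in the mature libraries. In each line all early libraries lay well above the later ones, and late and mature libraries overlapped. From early to late positive selection Myb fell 4.37-fold in TG6 (log2 fold change −2.13, SE 0.28, adjusted p = 6.1e-06) and 3.65-fold in OT-1 (log2 fold change −1.87, SE 0.25, adjusted p = 1.5e-05), and it fell in F5 (log2 fold change −1.20, SE 0.25, adjusted p = 0.0011). From late to mature it was not called in any line, with −0.32, adjusted p = 0.45 in TG6 (−0.53, adjusted p = 0.048 with each mouse as a block, and −0.65, adjusted p = 0.097 without TG6 mature replicate 3), −0.25, adjusted p = 0.57 in F5 and −0.14, adjusted p = 0.74 in OT-1. Over both steps Myb fell in TG6 (log2 fold change −2.45, SE 0.25, adjusted p = 8e-08; −2.78, adjusted p = 6.6e-09 without replicate 3, at 7287 the highest of its group), F5 (log2 fold change −1.45, SE 0.25, adjusted p = 0.00022) and OT-1 (log2 fold change −2.00, SE 0.25, adjusted p = 3.8e-06).

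The list of 7 cycling-cell markers, all of which passed the filter, followed another course than Myb. Its sum per library was 41467 to 44102 in TG6 early, 3148 to 3297 in TG6 late and 19908 to 69748 in TG6 mature libraries. In F5 it was 61948 to 76864, 2446 to 9302 and 21717 to 53668, and in OT-1 it was 64924 to 84774, 7171 to 9184 and 73895 to 81259. The cycling sum and Myb were both lower at the late than at the early stage. In mature libraries the cycling sum was higher again than at the late stage, while the mean of Myb was not. Within TG6 mature, however, replicate 3 had both the highest cycling sum (69748) and the highest Myb (7287). The part of the cycling list in the Myb values was not tested. The Myb exons share 6.26% of their bases with the antisense gene Gm26577.

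Between lines, early Myb was highest in TG6 and lowest in OT-1, with no overlap among the 3 lines (TG6 at 25368 ± 2922 (SD, n = 3), F5 at 16489 ± 967 (SD, n = 3) and OT-1 at 13681 ± 840.2 (SD, n = 3)). OT-1 was below TG6 (log2 fold change −0.89, SE 0.25, adjusted p = 0.012), while F5 minus TG6 was −0.62, adjusted p = 0.17 and OT-1 minus F5 was −0.27, adjusted p = 0.54. Fitted on the compared groups alone, both of these early differences were called (adjusted p = 0.0042 and 0.042). Late OT-1 minus TG6 was −0.63, adjusted p = 0.14, and −0.77, adjusted p = 0.049 after scaling to the total. In mature CD8SP, OT-1 minus TG6 was −0.44, adjusted p = 0.28 (−0.11, adjusted p = 0.77 without TG6 mature replicate 3), and F5 minus TG6 was 0.39, adjusted p = 0.48 (0.71, adjusted p = 0.07 without it). At the later stages F5 had the highest mean, with OT-1 below F5 at late positive selection (log2 fold change −0.94, SE 0.25, adjusted p = 0.0095) and in mature CD8SP (log2 fold change −0.83, SE 0.25, adjusted p = 0.022). The sum of the 7 double-positive markers was likewise ordered at the early stage, at 155567 to 168021 in TG6, 97217 to 106218 in F5 and 61489.6 to 72621 in OT-1. It includes Rag1 and Rag2, the genes named as deleted in F5 and OT-1, so that the sum is not separate from the genotype. Of the 7, 0 were called in F5 minus TG6 at that stage. In OT-1 minus F5, 0 were higher and 2 lower, and in OT-1 minus TG6 0 and 6. The part of these markers in the Myb difference was not tested. The late OT-1 minus F5 call was lost without F5 late replicate 1 (adjusted p = 0.053) or OT-1 late replicate 3 (0.071), and the mature one without F5 mature replicate 1 or OT-1 mature replicate 1 or 3 (0.051 to 0.13).

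Ets1 read in TG6 at 32198, 29426 and 32888 in the early, 35891 and 33722 in the late and 23585, 20617 and 21959 in the mature libraries (normalized counts). For F5, Ets1 libraries read 31982, 29660.0 and 32492 in the early, 38586, 41623 and 39365 in the late and 32132, 27406 and 30869 in the mature libraries. For OT-1, Ets1 libraries read 35865, 38606 and 34678 in the early, 33953, 36957 and 37297 in the late and 23496, 27816 and 24792 in the mature libraries. Late libraries were the highest of TG6 and F5, and in TG6 and OT-1 the mature libraries lay below all others. Ets1 fell from late positive selection to mature CD8SP in TG6 (log2 fold change −0.66, SE 0.09, adjusted p = 2.1e-05), F5 (log2 fold change −0.41, SE 0.08, adjusted p = 0.00089) and OT-1 (log2 fold change −0.51, SE 0.08, adjusted p = 0.00011), and it rose before that in F5 (log2 fold change 0.35, SE 0.08, adjusted p = 0.0027). Over both steps it fell in TG6 (log2 fold change −0.52, SE 0.08, adjusted p = 2.7e-05) and OT-1 (log2 fold change −0.52, SE 0.08, adjusted p = 4.9e-05), and mature F5 was not separated from early F5 (−0.06, adjusted p = 0.69, 95% interval −0.23 to 0.11).

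In mature CD8SP, Ets1 was higher in F5 than in TG6 (log2 fold change 0.45, SE 0.08, adjusted p = 0.00073), without overlap, and than in OT-1 (OT-1 minus F5, log2 fold change −0.25, SE 0.08, adjusted p = 0.031), where the groups overlapped by 1 F5 library of 27406 and 1 OT-1 library of 27816. At the 2 earlier stages no pair of lines was called, and OT-1 minus TG6 at the early stage was 0.21, adjusted p = 0.061 with groups that did not overlap (adjusted p = 0.049 with a filter of a mean of at least 50, and 0.043 on the compared groups alone). Late OT-1 minus F5 was −0.14, adjusted p = 0.22, and it was called after scaling to the total (−0.22, adjusted p = 0.042) and quantile normalization (−0.47, adjusted p = 0.00022). Late F5 minus TG6 was 0.20, adjusted p = 0.29, and 0.32, adjusted p = 0.045 after quantile normalization. The mature OT-1 minus F5 call was lost without F5 mature replicate 1 or 3 or OT-1 mature replicate 1 or 3 (adjusted p from 0.083 to 0.14), and with no filter (0.072), no trend in the prior variance (0.053) or the compared groups alone (0.12). The F5 minus TG6 call was lost on the compared groups alone (0.16).

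None of the 3 Ikaros family genes was called lower in mature CD8SP than at the early stage in the fit of all libraries without the block, but Ikzf2 and Ikzf1 in OT-1 and Ikzf3 in TG6 were under other settings given with each gene. Ikzf1 read in TG6 at 15622, 14876 and 15333 in the early, 15185 and 14529 in the late and 18068, 16638 and 17042 in the mature libraries (normalized counts). The F5 libraries of Ikzf1 read 19913, 17883 and 17857 in the early, 15655, 13617 and 13975 in the late and 19999.7, 16507 and 20115 in the mature libraries. The OT-1 libraries of Ikzf1 read 23904, 25212 and 23676 in the early, 24247, 22437 and 21440.4 in the late and 25261, 25414 and 24256 in the mature libraries. At every stage each OT-1 library lay above all libraries of the other lines. OT-1 was above TG6 by 1.59-fold at early positive selection (log2 fold change 0.67, SE 0.08, adjusted p = 1.6e-06), 1.53-fold at late positive selection (log2 fold change 0.61, SE 0.09, adjusted p = 4e-05) and 1.45-fold in mature CD8SP (log2 fold change 0.53, SE 0.08, adjusted p = 9.5e-05). It was above F5 at the early (log2 fold change 0.39, SE 0.08, adjusted p = 0.0018), late (log2 fold change 0.66, SE 0.08, adjusted p = 2.3e-06) and mature stage (log2 fold change 0.41, SE 0.08, adjusted p = 0.00083), although the early and mature calls were lost after quantile normalization (0.19, adjusted p = 0.064, and 0.11, adjusted p = 0.26).

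At early positive selection Ikzf1 followed the order of self-reactivity, with TG6 at 15277 ± 376 (SD, n = 3), F5 at 18551 ± 1179 (SD, n = 3) and OT-1 at 24264 ± 829 (SD, n = 3). F5 was above TG6 there (log2 fold change 0.28, SE 0.08, adjusted p = 0.036), a call lost without any 1 of the 6 libraries compared (adjusted p from 0.06 to 0.18) and with no filter (0.078) or no trend in the prior variance (0.071). F5 and TG6 were not separated at the later stages. Marker lists moved with early Ikzf1. Gamma-delta marker sums were 1837 to 2130.1 in TG6, 8881 to 10046 in F5 and 9133 to 10169 in OT-1 early libraries, and cycling-cell sums were 41467 to 44102, 61948 to 76864 and 64924 to 84774, with F5 and OT-1 overlapping in both. F5 and OT-1 carry a labelled Rag knockout and TG6 does not, so the gamma-delta sums are not separate from the genotype. Of the 7 markers of mature CD8SP, 5 were called higher and 2 lower in OT-1 than in TG6 at that stage, although their sum was lower in OT-1 (33398 to 39842) than in F5 (51153 to 54627) and TG6 (58179 to 65074), and the part of these lists in the Ikzf1 values was not tested. Across stages Ikzf1 fell at late positive selection in F5 (log2 fold change −0.36, SE 0.08, adjusted p = 0.0014) and rose again to mature CD8SP (log2 fold change 0.39, SE 0.08, adjusted p = 0.0011; adjusted p = 0.079 on the compared groups alone). In TG6 and OT-1 no step was called, but with each mouse as a block TG6 was called higher in mature CD8SP than at late (0.22, adjusted p = 0.029) and early positive selection (0.17, adjusted p = 0.023). After quantile normalization the OT-1 change from early to mature turned to −0.21 (adjusted p = 0.026), against 0.04, adjusted p = 0.77, and the OT-1 step from early to late was called lower (−0.20, adjusted p = 0.026, against −0.10, adjusted p = 0.4).

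**Figure D3:**
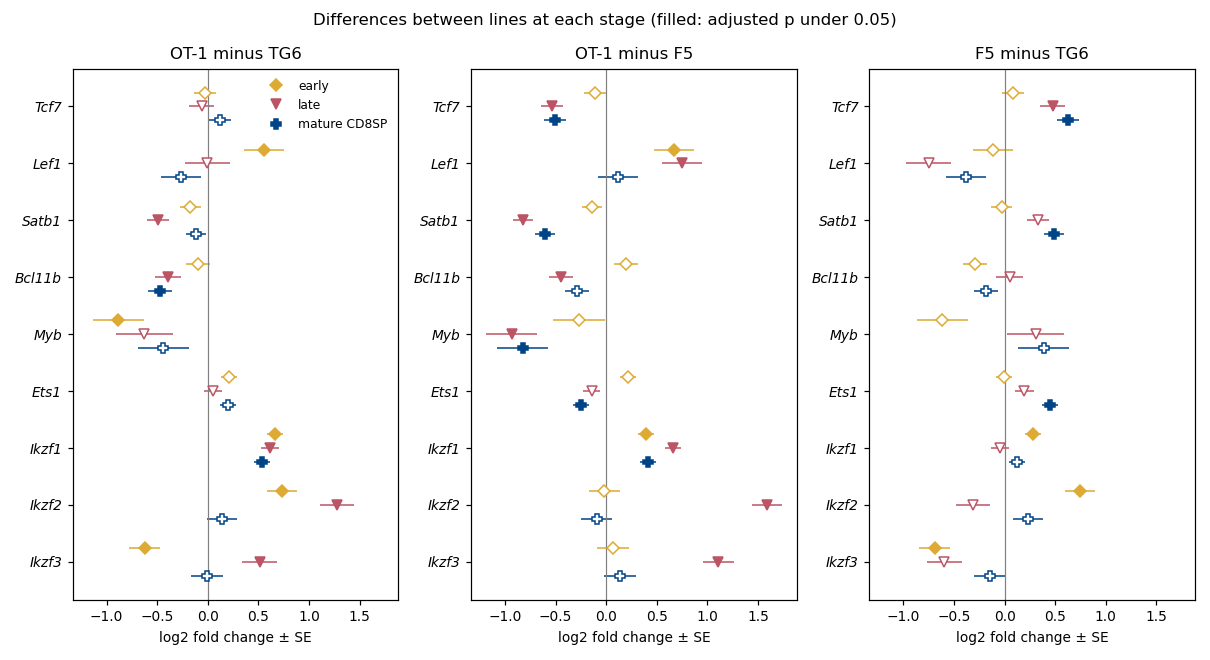
Log2 fold change (± SE) of each factor between lines, in panels for OT-1 minus TG6, OT-1 minus F5 and F5 minus TG6, at early positive selection (diamonds), late positive selection (down triangles) and in mature CD8SP (plus shape); filled symbols have an adjusted p under 0.05 (limma over all genes). Ikzf1 was higher in OT-1 than in TG6 and F5 at each stage, and the widest difference was that of Ikzf2 between OT-1 and F5 at late positive selection.

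Ikzf2, encoding Helios, read in TG6 at 3297, 3048 and 2484 in the early, 2111 and 1882 in the late and 3380.1, 3992 and 2872 in the mature libraries (normalized counts). F5 gave for Ikzf2 4988, 4933 and 4816 in the early, 2078, 1564 and 1274 in the late and 4452, 3372 and 4201 in the mature libraries. OT-1 gave for Ikzf2 5389, 4446 and 4767 in the early, 5142, 4998 and 4378 in the late and 3888, 3586 and 3707 in the mature libraries. TG6 and F5 dipped at late positive selection, where their libraries lay below all others of the line, and OT-1 did not. The 7 cycling-cell markers took a like course, with 7 of 7 called lower from early to late positive selection and 7 of 7 higher from late to mature in TG6 and F5, but also in OT-1, and their part in these Ikzf2 values and in the stage changes of Ikzf1 and Ikzf3 was not tested. The fall to late positive selection was 3.06-fold in F5 (log2 fold change −1.61, SE 0.15, adjusted p = 1.4e-07) and 1.47-fold in TG6 (log2 fold change −0.55, SE 0.17, adjusted p = 0.018), while OT-1 gave −0.01, adjusted p = 0.99. Ikzf2 then rose to mature CD8SP in F5 (log2 fold change 1.31, SE 0.15, adjusted p = 2.4e-06) and TG6 (log2 fold change 0.76, SE 0.17, adjusted p = 0.0021). In OT-1 the change from late to mature was −0.37, adjusted p = 0.073 and that from early to mature −0.38, adjusted p = 0.072. The former was called lower with each mouse as a block (adjusted p = 0.021), after scaling to the total (−0.44, 0.035) and on the compared groups alone (0.0097). The latter was called lower with the block (0.02), after scaling to the total (−0.45, 0.03) or quantile normalization (−0.40, 0.043) and on the compared groups alone (0.011). The TG6 fall was lost without TG6 late replicate 2 or TG6 early replicate 1 or 2 (adjusted p from 0.051 to 0.16), and the TG6 rise on the compared groups alone (0.054).

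At early positive selection Ikzf2 was higher in OT-1 (log2 fold change 0.73, SE 0.15, adjusted p = 0.00095) and F5 (log2 fold change 0.75, SE 0.15, adjusted p = 0.0028) than in TG6, without overlap, and OT-1 minus F5 was −0.02, adjusted p = 0.96 (95% interval −0.33 to 0.29). At late positive selection OT-1 was 3.01-fold above F5 (log2 fold change 1.59, SE 0.15, adjusted p = 8.2e-08) and 2.42-fold above TG6 (log2 fold change 1.28, SE 0.17, adjusted p = 1.2e-05). In mature CD8SP no pair of lines was called. Helios also marks regulatory T cells. Of the 4 regulatory T cell markers all passed the filter, with sums per library of 639 to 1288 in OT-1, 606 to 1479 in F5 and 1041 to 1046 in TG6 at late positive selection, so that the lines overlapped there. Foxp3, the defining regulatory T cell marker, had a group mean of 9.53 normalized counts in OT-1 late, 10.8 in F5 late and 44.4 in TG6 late. Of the regulatory T cell list, 0 were called higher and 2 lower in OT-1 than in TG6 at the early stage. At late positive selection 0 were higher and 1 lower in OT-1, both against TG6 and against F5. Other marker lists also differed between the lines, but a list sum does not show that such cells were present. F5 and OT-1 carry a labelled Rag knockout and TG6 does not, so the gamma-delta list is not separate from the genotype. All 4 gamma-delta T cell markers passed the filter. Their sums were 9133 to 10169 in OT-1, 8881 to 10046 in F5 and 1837 to 2130.1 in TG6 early libraries, with 4 of 4 called higher in OT-1 and 1 of 4 higher in F5 than in TG6. In late libraries the sums were 10944 to 12747 in OT-1, 6530.0 to 8289 in F5 and 2002 to 3344 in TG6, and 3 of the 4 were called higher in OT-1 than in F5. Of the 3 NKT cell markers 1 passed, with list sums of 1778 to 2054, 83.6 to 182 and 1151 to 1253 in the same order, and the defining marker Zbtb16 had a group mean of at most 1.96. Of the 7 cycling-cell markers, 4 were called higher in OT-1 than in F5 and 5 higher than in TG6 at that stage. Of the 7 myeloid and dendritic markers, 5 were called higher and 0 lower in OT-1 than in F5 late libraries (sums of 437 to 439 against 128 to 158), and 0 higher and 1 lower in OT-1 than in TG6. At the early stage 5 were higher and 1 lower in OT-1 than in TG6. Late Ikzf3 was likewise highest in OT-1, and the part of these markers in the Ikzf2 and Ikzf3 values was not tested.

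Ikzf3, encoding Aiolos, read in TG6 at 6384, 6012 and 7234 in the early, 4044 and 4203 in the late and 5202, 4698 and 5299 in the mature libraries (normalized counts). F5 gave for Ikzf3 4196, 3675 and 4278 in the early, 2540.2, 2368 and 3384 in the late and 5312, 3261 and 5505 in the mature libraries. OT-1 gave for Ikzf3 4591, 3646 and 4521 in the early, 5993, 6402 and 5323 in the late and 5117, 5097 and 4870.3 in the mature libraries. Late positive selection was the low point of TG6 and F5 and the high point of OT-1. Ikzf3 fell from early to late positive selection in TG6 (log2 fold change −0.66, SE 0.17, adjusted p = 0.0067) and F5 (log2 fold change −0.57, SE 0.16, adjusted p = 0.0091) and rose in OT-1 (log2 fold change 0.48, SE 0.16, adjusted p = 0.027). It rose again in F5 from late to mature (log2 fold change 0.74, SE 0.16, adjusted p = 0.0014), with F5 mature replicate 2 at 3261 below the highest late library. From early to mature no line was called, with −0.37, adjusted p = 0.074 in TG6 and 0.18, adjusted p = 0.5 in F5. TG6 was called lower with each mouse as a block (adjusted p = 0.017), after scaling to the total (−0.46, 0.025) or quantile normalization (−0.44, 0.021) and on the compared groups alone (0.042), and F5 was called higher without F5 mature replicate 2 (0.42, adjusted p = 0.026). The first-step calls were lost without TG6 late replicate 1 (adjusted p = 0.06), without F5 late replicate 2 (0.053), and without OT-1 late replicate 1 or 2 or OT-1 early replicate 2 (0.072 to 0.13), and the F5 rise on the compared groups alone (0.076).

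Between lines, early Ikzf3 was higher in TG6 than in OT-1 (OT-1 minus TG6, log2 fold change −0.62, SE 0.16, adjusted p = 0.0048) and in F5 (F5 minus TG6, log2 fold change −0.69, SE 0.16, adjusted p = 0.0076). OT-1 minus F5 was 0.07, adjusted p = 0.83 at that stage. At late positive selection OT-1 and TG6 had exchanged places and F5 had the lowest libraries, with OT-1 above F5 by 2.16-fold (log2 fold change 1.11, SE 0.16, adjusted p = 1.7e-05) and above TG6 (log2 fold change 0.51, SE 0.17, adjusted p = 0.049), with no overlap among the lines. Late F5 minus TG6 was −0.59, adjusted p = 0.051, and it was called with a filter of a mean of at least 50 (0.048), after scaling to the total (0.027) or quantile normalization (0.015) and without F5 late replicate 3 (0.014). It was also called with the replicate number, which mice of different lines share in name only, as a block (0.017). In mature CD8SP no pair was called. The late OT-1 minus TG6 call sits at the threshold. It was lost without OT-1 late replicate 1 or 2 or either TG6 late library (adjusted p from 0.11 to 0.22), after scaling to the total (0.14) or quantile normalization (0.089), and with a pseudocount of 0.1 (0.051), no filter (0.079) or no trend in the prior variance (0.075). The early F5 minus TG6 call was lost without TG6 early replicate 3 (0.052).

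Whether a stage change differed between lines was tested as an interaction. For Ikzf3 the change from early to late positive selection was above that of TG6 in OT-1 (difference 1.14, SE 0.23, adjusted p = 0.011), and it was the only factor of 9 called in that contrast, beside 2.04% of all genes. The change from early to mature was above that of TG6 in F5 for Tcf7 (difference 0.54, SE 0.15, adjusted p = 0.047), Satb1 (difference 0.52, SE 0.14, adjusted p = 0.037) and Ets1 (difference 0.45, SE 0.11, adjusted p = 0.024), which are 3 of 9, beside 4.4%. In F5 itself, Tcf7 and Satb1 were called lower over that change and Ets1 was not called. Ets1 was also the 1 factor of 9 whose early to mature change differed between OT-1 and F5 (difference −0.46, SE 0.11, adjusted p = 0.042, beside 1.64%). Between OT-1 and TG6, 0 of 9 early to mature changes differed by limma, beside 4.2% of all genes, with 4 of 9 at an unadjusted p under 0.05. The 3 differences of the early to mature change share libraries.

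These interaction calls depended on the libraries and on the fit. Without TG6 mature replicate 3, 1, 2, 4 and 1 factors were called for OT-1 minus TG6, OT-1 minus F5 and F5 minus TG6 from early to mature and for OT-1 minus TG6 from early to late. With each mouse as a block, 3, 5, 5 and 3 were called in the same order, beside 7.77%, 5.41%, 9.35% and 4.47% of all genes. Those added were Lef1 (−0.82, adjusted p = 0.0026), Ikzf2 (−0.59, adjusted p = 0.037) and Ikzf3 (0.62, adjusted p = 0.028) in the first. Tcf7 (−0.39, adjusted p = 0.042), Lef1 (−0.55, adjusted p = 0.046), Satb1 (−0.46, adjusted p = 0.0068) and Bcl11b (−0.49, adjusted p = 0.042) were added in the second. Myb (1.00, adjusted p = 0.01) and Ikzf3 (0.54, adjusted p = 0.047) were added in the third, and Satb1 (−0.41, adjusted p = 0.025) and Ikzf2 (0.66, adjusted p = 0.048) in the fourth. Without the block, the Tcf7 call was lost when any 1 library of the 12 other than TG6 mature replicate 3 was left out (adjusted p from 0.055 to 0.12) and with a pseudocount of 0.1 (0.053). The Satb1 call was lost without F5 early replicate 2, F5 mature replicate 1 or 3, TG6 early replicate 3 or TG6 mature replicate 1 or 2 (0.06 to 0.11). The Ets1 call of F5 minus TG6 was lost without F5 early replicate 2, F5 mature replicate 1 or 3, TG6 early replicate 1 or 3 or TG6 mature replicate 2 (0.057 to 0.071). That of OT-1 minus F5 was lost without any F5 early library, F5 mature replicate 1 or 3, OT-1 early replicate 1 or 2, or OT-1 mature replicate 1 or 3 (0.064 to 0.13). These 4 calls were also lost with no filter (0.063 to 0.1), with no trend in the prior variance (0.051 to 0.086) and on the compared groups alone (0.079 to 0.22). The Ikzf3 call was lost without either TG6 late library (0.065 and 0.057). Without TG6 mature replicate 3, Tcf7 (0.72, adjusted p = 2e-04) kept its call, and Myb (1.33, adjusted p = 0.015) and, for OT-1 minus TG6, Ikzf2 (−0.71, adjusted p = 0.047) gained one. Calls were also gained for OT-1 minus TG6 from early to mature on the compared groups alone (Lef1, 0.039, and Ikzf3, 0.046) and without F5 mature replicate 2 (Bcl11b in OT-1 minus F5, 0.037, and Ikzf3 in F5 minus TG6, 0.011). After quantile normalization Tcf7 (0.021) and Satb1 (0.034) were gained in OT-1 minus F5, and Satb1 in OT-1 minus TG6 from early to late (0.001), and Satb1 in OT-1 minus F5 was also gained after scaling to the total (0.034). The split of the 5 calls was 4 higher and 1 lower, against 4 and 2 after scaling to the total and 4 and 4 after quantile normalization.

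Over the means of the 9 groups, Satb1 correlated with Bcl11b (Pearson r = 0.94, log2 scale), Ets1 (0.88) and Tcf7 (0.86), and Tcf7 with Myb (0.81). Myb was less like the other factors that fell, at 0.56 with Satb1, 0.58 with Bcl11b and 0.29 with Ets1. Ikzf1 and Ikzf2 correlated with r = 0.79, and Tcf7 and Lef1 ran opposite to each other with r = −0.73. These are descriptions over 9 points that share libraries, lines and stages.

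**Figure D4:**
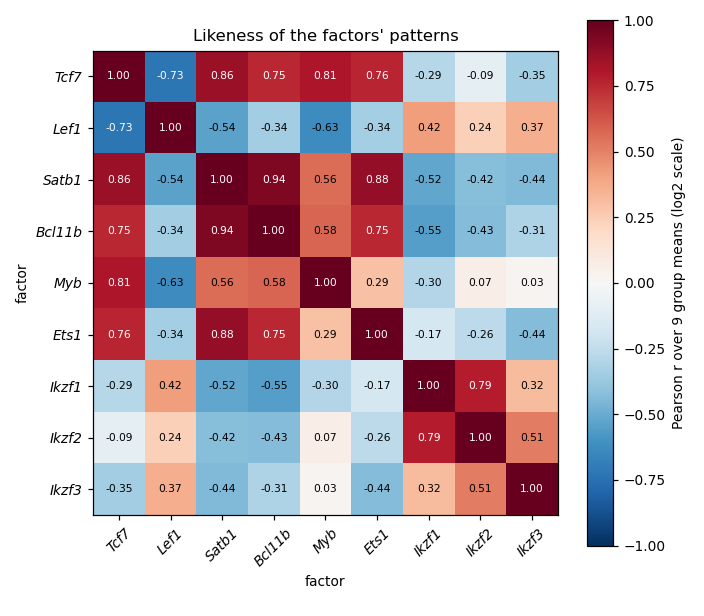
Pearson correlation of group means of log2(normalized count + 1) between each pair of the 9 factors, over the 9 groups of line and stage, on a color scale from −1 to 1. The highest values off the diagonal lie between Satb1 and Bcl11b (0.94) and between Satb1 and Ets1 (0.88), and the Lef1 and Tcf7 pair is at −0.73.

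Among 9897 other genes with a mean of at least 100 normalized counts, those most like the factors by the same measure were Eif4g2, Wdsub1 and Tmem184c for Tcf7 (each r = 0.99), Slc38a2 for Bcl11b (0.98), Ptprf for Myb (0.99), Gng10 for Ikzf1 (0.98), Ints2 for Ikzf2 (0.98) and Ttyh3 for Ets1 (0.98). Lef1 was most like Cd74 (0.95), Irf1 (0.94) and Adam19 (0.93). Cd74 is the invariant chain of MHC class II and stood among the 7 myeloid and dendritic markers, all of which passed the filter, with sums per library of 307 to 351 in TG6 early, 546 to 869 in TG6 late and 947 to 1857 in TG6 mature libraries. In F5 early, late and mature libraries the sums were 254 to 586, 128 to 158 and 220.4 to 750.4, and in OT-1 they were 349 to 859, 437 to 439 and 666 to 964. Their part in the Lef1 values was not tested.

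Cofactors and relatives of the factors were read from lists of related genes. Of 14 NuRD subunits, the partners of the Ikaros family, 8 were higher and 1 lower in OT-1 than in TG6 at the early stage (median log2 fold change 0.23, against −0.00 over all genes tested, beside 27.8% of all genes called), 4 and 1 at late positive selection (beside 15.5%) and 2 and 0 in mature CD8SP (beside 9.74%). Chd3, a remodeling ATPase of the complex, was at a mean of 14343 normalized counts in OT-1 early and 4928 in TG6 early libraries (log2 fold change 1.57, SE 0.15, adjusted p = 1.3e-07), and the histone-binding subunit Rbbp7 was also higher (log2 fold change 0.98, SE 0.14, adjusted p = 2e-05). From early positive selection to mature CD8SP, 6 subunits were higher and 0 lower in TG6 (beside 34.6% of all genes), 4 and 1 in F5 (beside 19.6%), and 5 and 0 in OT-1 (beside 23.2%). Of 16 tested cofactors of TCF/LEF, 4 were higher and 3 lower in OT-1 than in TG6 at the early stage (median −0.04, beside 27.8% of all genes called). The Groucho corepressor Tle2 was lower in OT-1, at 214 against 931 normalized counts (log2 fold change −2.10, SE 0.21, adjusted p = 1.7e-07), as were Jup, the β-catenin relative plakoglobin (log2 fold change −1.25, SE 0.20, adjusted p = 7.4e-05), and Tle1 (log2 fold change −0.89, SE 0.23, adjusted p = 0.0061).

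Of 21 tested relatives of the 9 factors in the same DNA-binding families, 2 were higher and 3 lower in OT-1 than in TG6 at the early stage (median 0.03), 0 and 1 at the late and 0 and 1 at the mature stage, in each case a share below the 27.8%, 15.5% and 9.74% of all genes. Ets2, a close relative of Ets1, was lower in OT-1 (log2 fold change −0.92, SE 0.19, adjusted p = 0.0013), and Tcf7l1, a relative of Tcf7 at the low mean of 106 against 40.5 normalized counts, was higher (log2 fold change 1.33, SE 0.34, adjusted p = 0.0057). In F5, Ets2 fell from early positive selection to mature CD8SP (log2 fold change −1.87, SE 0.19, adjusted p = 3.1e-07), while Ikzf4, the Ikaros family gene encoding Eos, rose from a mean of 47.0 to 112 normalized counts (log2 fold change 1.23, SE 0.28, adjusted p = 0.003). Over that change, 3 relatives were higher and 4 lower in F5 (beside 19.6% of all genes), 2 and 4 in TG6 (beside 34.6%, a higher share than that of the relatives), and 3 and 6 in OT-1 (beside 23.2%).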

How the data were processed

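RNA of sorted thymocytes was sequenced, and per the submitters' processing notes reads were handled with Trimmomatic 0.32, Bowtie2 2.3.2, RSEM 1.2.31 and DESeq2 on mm10. The deposited values are a signal, counts per gene that the authors divided by size factors (normalized counts, median of ratios). They were not whole reads (42.4 to 44.2% within 0.01), so a count test was not used, although planned for whole reads.

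Values were tested on log2(value + 1), the scale of every fold change, which understates changes of low genes, with limma 3.58.1 in R 4.3.3 (moderated test, trended prior variance, two-sided, Benjamini-Hochberg over all 16372 genes tested). One fit held all 26 libraries with a mean for each of 9 groups and 17 residual degrees of freedom. Reads per library, estimated by taking the commonest value as 1 read, ranged from 16161676 to 18345795. Groups came from the labels, and replicates were different mice.

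The same replicate number within a line was taken as the same mouse, since the design text says that the populations were sorted from 3 mice per line. Deviations of same-numbered libraries correlated with r of 0.106 to 0.34 in F5, 0.0189 to 0.178 in OT-1 and 0.023 to 0.274 in TG6, against at most 0.0921 between different numbers. Of the 7 TG6 pairs, 2 were over 0.1, and TG6 late titles read TG62B, unlike the TG6A and TG6C titles of the other stages, so that the pairing of the TG6 late libraries is less sure.

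The 9 genes, the lists of related genes and of cell type markers were chosen with earlier results of these data known. All 9 were named, with the 3 genes most like each by Pearson r over group means (mean of at least 100; the highest or highest few are given, and some are not reported here) and, of each list, up to 3 genes by size of change among those called in OT-1 minus TG6 early and F5 mature minus early. Gene positions and exon lengths are those of GENCODE vM21 (GRCm38), and promoter windows those of RefSeq (GRCm38.p6, 6 of the 9 genes matched). The alternatives were pseudocounts of 0.1 and 5, no filter, a filter on a mean of 50, scaling to the total, quantile normalization, no trend in the prior variance, fits on the compared groups alone, a replicate block and leaving out each library. The block was the mouse for stage changes and interactions and the replicate number for line comparisons. The fit was tested on simulated data.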

Additional observations from a re-analysis of the deposited data

Results flagged for a closer look

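For 5 of the 36 interaction tests, the change of a factor between stages differed between 2 lines by the test of the difference itself (limma, adjusted p under 0.05 over all genes). From early positive selection to mature CD8SP, the change in F5 exceeded that in TG6 by 0.54 (log2) for Tcf7, by 0.52 for Satb1 and by 0.45 for Ets1, and the change in OT-1 minus that in F5 was −0.46 for Ets1. From early to late positive selection, the change in OT-1 exceeded that in TG6 by 1.14 for Ikzf3. The Ikzf3 fall in TG6 was −0.66 and its rise in OT-1 was 0.48. In mature CD8SP, the F5 means that go with the first 3 were 53085 ± 1139 (SD, n = 3) for Tcf7, 31775 ± 2927 (SD, n = 3) for Satb1 and 30136 ± 2447 (SD, n = 3) for Ets1, against 34981 ± 8048 (SD, n = 3), 22611 ± 1998 (SD, n = 3) and 22054 ± 1486 (SD, n = 3) normalized counts in TG6.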

How the results depend on the processing

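Of 7 counts of calls, 5 stayed within 1.5 times of the reported value under all alternatives and without any 1 library. F5 against TG6 gave 7 calls over the 3 stages, and 4 on the compared groups alone. The interactions gave 5 calls, and 1 with no filter, 8 after quantile normalization, 1 with no trend in the prior variance, 3 on the compared groups alone and 16 with the replicate block. Leaving out 1 library gave 9 to 14 calls for OT-1 against TG6, 13 to 16 for OT-1 against F5, 5 to 9 for F5 against TG6, 13 to 15 from early to late, 16 to 18 from late to mature, 15 to 17 from early to mature, and 1 to 8 for the interactions. The interactions gave 1 without F5 mature replicate 1, F5 mature replicate 3 or F5 early replicate 2, 7 without F5 mature replicate 2 and 8 without TG6 mature replicate 3. A TG6 late group of 1 library was assumed to vary like the other groups.

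Of 198 tests of a single factor, the replicate block lost 0 calls and gained 25, of which 11 were stage changes, 11 interactions and 3 line comparisons (Lef1 and Ikzf3 in F5 minus TG6 late, adjusted p = 0.046 and 0.017, and Bcl11b in OT-1 minus F5 mature, adjusted p = 0.048). Across lines a replicate number is only a shared number. A pseudocount of 0.1 lost 3 and gained 0, a pseudocount of 5 changed none, no filter lost 11, a mean filter of 50 gained 3, scaling to the total lost 2 and gained 10, quantile normalization lost 7 and gained 19, no trend lost 10, and the compared groups alone lost 14 and gained 8. Reversed after quantile normalization were Ikzf1 from early to mature in OT-1 (−0.21) and Satb1 in F5 minus TG6 early (0.19), neither called otherwise. The cause of these changes was not tested. With 2 or 3 libraries per group, differences within the intervals given could not be shown.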

Other observations

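Genes reported as targets of the 9 factors were read from a list of 16 chosen with earlier results known. It holds Rag1 and Rag2, whose deletion the F5 and OT-1 genotypes name, so that their differences between lines are not separate from the genotype. In OT-1 minus TG6 at early positive selection, 5 were higher and 8 lower (median log2 fold change −1.18, against −0.00 over all genes tested, beside 27.8% of all genes called), and at late positive selection 0 and 5 (beside 15.5%). The cytokine receptor gene Il7r was higher, at a mean of 144 against 11.5 normalized counts (log2 fold change 3.48, SE 0.44, adjusted p = 3.9e-06). From early positive selection to mature CD8SP, 4 were higher and 8 lower in TG6 (beside 34.6%), 4 and 9 in F5 (beside 19.6%), and 6 and 8 in OT-1 (beside 23.2%), with Cd4, which the sort gates used (log2 fold change −5.74, SE 0.50, adjusted p = 2.1e-08), among those that fell in F5.

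Of 19 other T lineage factors, 7 were higher and 4 lower in OT-1 than in TG6 at the early stage (median −0.03, beside 27.8% of all genes). Zbtb7b, which encodes the CD4 lineage factor ThPOK, was at a mean of 169 against 11.6 normalized counts (log2 fold change 3.82, SE 0.70, adjusted p = 0.00034), and the HMG-box gene Tox2 was at 3100.2 against 565 (log2 fold change 2.50, SE 0.42, adjusted p = 0.00013). From early to mature, 3 were higher and 10 lower in TG6 (beside 34.6%), 4 and 9 in F5 (beside 19.6%), and 4 and 11 in OT-1 (beside 23.2%, median −0.79 in OT-1). In F5 the CD8 lineage factor Runx3 rose (log2 fold change 2.33, SE 0.31, adjusted p = 7.7e-06).

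Of 11 tested genes linked to agonist selection, the setting in which Helios is best known, 5 were higher and 1 lower in OT-1 than in TG6 at the early (median 1.27, beside 27.8% of all genes) and 6 and 1 at the late stage (median 1.49, beside 15.5%). Pdcd1, encoding the inhibitory receptor PD-1 (log2 fold change 2.31, SE 0.43, adjusted p = 0.00036), and Cd160 (log2 fold change 2.72, SE 0.33, adjusted p = 2.4e-06) were among those higher at the early stage. In mature CD8SP 1 was higher and 1 lower (beside 9.74%). In OT-1 minus F5 at late positive selection, where Ikzf2 differed most, 6 were higher and 0 lower (beside 24%).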
